A study of Homo sapiens with 6 samples.

Results

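The Eph receptors and the ephrins are the surface proteins described here, in 3 human cancer cell lines. The list held 10 genes, the receptors EPHA1, EPHA2, EPHA4, EPHB2, EPHB3 and EPHB4 and the ligands EFNA1, EFNA5, EFNB1 and EFNB2. A member was every probe set (a group of short oligonucleotides that reads 1 transcript region) whose annotation gave exactly 1 symbol, equal to a listed gene. That rule gave 21 probe sets of 9 genes, among 41097 single-symbol probe sets of 19775 genes on the array. EPHB2 was not analysed here, since the annotation used named no probe set by that symbol alone. The lines were TEM4-18 and TEM2-5, each recovered after PC-3 cells had migrated through a monolayer of endothelial cells from human lung microvessels, and the parental line PC-3, a prostate cancer line from a bone metastasis. TEM2-5 came from a repeat of the migration experiment, and each line was hybridised to 2 arrays. All 3 lines grew in DMEM/F12 with serum, and no other treatment is given in the labels. Each TEM line is a single isolate and PC-3 a single line. Whether both arrays of a line stem from separate cultures is not given in the labels. For the second TEM2-5 array, the title gives replicate 2 but the source name gives replicate 1, and the title was followed. The p-values thus measure array-to-array spread alone, and this spread could be technical.

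Eph receptors form a large family of receptor tyrosine kinases, and their ligands, the ephrins, are themselves held on the cell surface. Signalling therefore needs contact between cells and runs both ways, forward into the cell with the receptor and in reverse into the cell with the ephrin. Ephrin-A ligands hang on a lipid anchor and mostly bind EphA receptors, while ephrin-B ligands span the membrane and mostly bind EphB receptors. The family is known for the repulsion and sorting of cells at tissue boundaries, for epithelial junctions, and, through ephrin-B2 and EphB4, for the separation of arteries from veins.

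Of the 9 genes, EPHA1 and EFNB2 showed the large differences between the lines. Both fell in TEM4-18 and TEM2-5, EPHA1 on its only tested probe set and EFNB2 in TEM2-5 on 1 of its 2 probe sets. Their upstream sequences are shown because they are the members that fell in both lines, and capitals mark an E-box, CAGGTG or its reverse complement CACCTG, a site known to be bound by repressors of the ZEB and Snail families. The 250 bases before the start site of EPHA1 lie at chr7:143408857-143409106 and those of EFNB2 at chr13:106535663-106535912, both on the minus strand of GRCh38.p14, from RefSeq, written from 5′ to 3′ on the strand of the gene.
EPHA1: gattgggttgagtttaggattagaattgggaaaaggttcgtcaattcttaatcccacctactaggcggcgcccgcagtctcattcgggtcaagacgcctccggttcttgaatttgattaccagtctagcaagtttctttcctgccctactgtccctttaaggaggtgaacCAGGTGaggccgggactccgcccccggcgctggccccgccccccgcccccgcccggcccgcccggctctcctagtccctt
EFNB2: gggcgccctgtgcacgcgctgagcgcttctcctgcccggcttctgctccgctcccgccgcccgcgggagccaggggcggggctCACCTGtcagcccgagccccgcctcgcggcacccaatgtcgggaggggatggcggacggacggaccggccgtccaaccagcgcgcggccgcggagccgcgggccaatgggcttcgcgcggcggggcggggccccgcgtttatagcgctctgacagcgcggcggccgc
The match in EPHA1 began 80 bases before the start site and the match in EFNB2 began 167 bases before it. The motif was chosen with the expression results known. It was found, searching both strands, in 2 of the 10 windows of the 9 genes (EPHA4 has 2 start sites). Over all genes it was found in 17.5% of 35116 upstream windows of the same length. The share among the members is near that of all windows. These letters do not occur in the windows of EPHA2, EPHA4, EPHB3, EPHB4, EFNA1, EFNA5 and EFNB1, although EFNA1 was also called lower in TEM4-18. The same windows were also searched for 2 other motifs. A GC box, GGGCGG or CCGCCC, was found in all 10, against 42.6% of all windows. TATAAA or TTTATA was found in the EFNB2 window alone, against 10.7% of all windows. A match is a description of the sequence, and no binding was measured.

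Signals are the authors' linear MAS5 intensities in array units, and the number of arrays limits their precision. The 6 arrays had median signals of 267 to 317 and the same trimmed mean. Differences were tested on log2(signal + 51.8) with limma over the 32768 probe sets whose mean signal exceeded 174, and a probe set was called where its Benjamini-Hochberg adjusted p was under 0.05. Of the 21 member probe sets, 16 passed this filter on low signals and 5 did not. Fold changes on this scale understate changes of low signals. Levels of different probe sets are not compared, apart from sums of marker signals, which mostly follow their brightest probe sets.

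**Figure D1:**
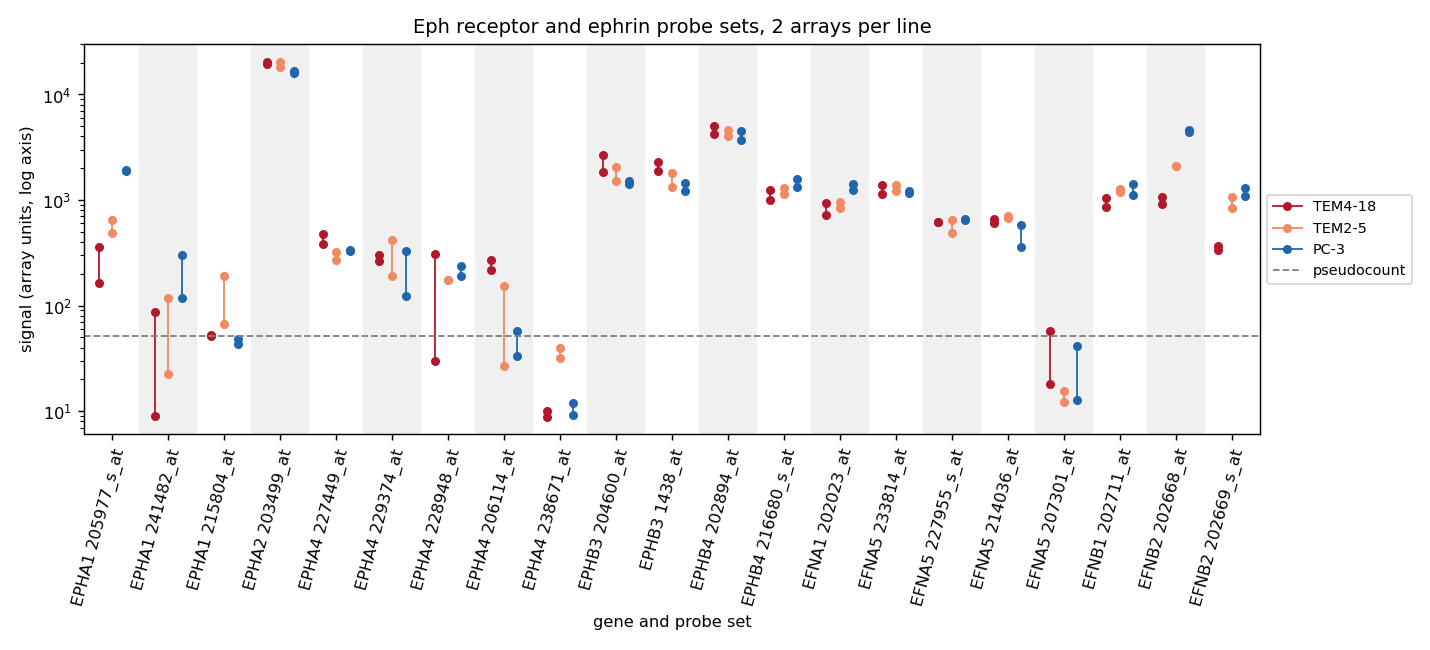
Signal of every member probe set in array units on a log axis, with 1 point per array, the 2 arrays of a line joined, and the pseudocount of 51.8 dashed. EPHA1 205977_s_at and EFNB2 202668_at have all TEM4-18 and TEM2-5 points below both PC-3 points, while EPHA2, EPHB3 and EPHB4 lie close together in the 3 lines.

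In TEM4-18 against PC-3, limma called 7 of the 16 tested member probe sets, 3 higher and 4 lower, which is 43.8% against 25.6% of all tested probe sets (12.8% higher and 12.8% lower). Counted by gene on the brightest probe set, 5 of 9 were called, 2 higher and 3 lower, against 29.3% of all genes. The median log2 fold change of the 16 probe sets was -0.0034, against -0.0015 over all tested. EPHA1, EFNB2 and EFNA1 made up the calls below PC-3, and EPHA2 and EPHB3 those above it. In TEM2-5 against PC-3, limma called 0 probe sets higher and 2 lower, those of EPHA1 and EFNB2, which is 12.5% against 16.3% of all tested probe sets (8.66% higher and 7.59% lower). At an unadjusted p under 0.05, 2 of the 16 were higher and 3 lower in that comparison, against 15.4% and 14.0% of all tested probe sets. By gene, 2 of 9 were called there, which is 22.2% against 19.0% of all genes. Both shares in TEM2-5 lie near the background. The median log2 fold change there was -0.091, against 0.0076 over all tested. Both comparisons use the same PC-3 arrays.

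**Figure D2:**
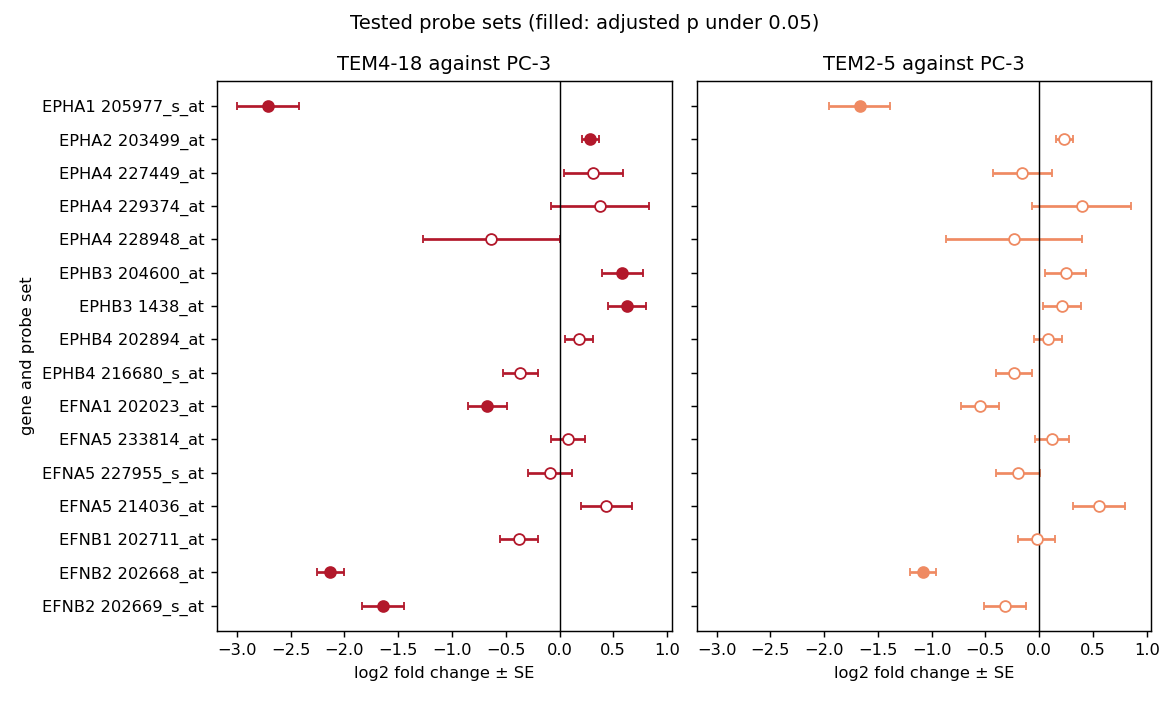
Log2 fold change of each tested member probe set against PC-3, on the log2(signal + 51.8) scale, with its standard error, for TEM4-18 on the left and TEM2-5 on the right. Filled points have an adjusted p under 0.05, and only EPHA1 and EFNB2 have filled points in both panels.

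EPHA1 was the first receptor of the family to be described and is expressed in epithelia. On probe set 205977_s_at its signal was 165 and 358 in TEM4-18, 646 and 486 in TEM2-5, and 1917 and 1880.3 in PC-3. The 3 lines did not overlap, with TEM4-18 lowest and PC-3 highest. The mean signal was 0.138 times that of PC-3 in TEM4-18 and 0.298 times in TEM2-5. Its log2 fold change was -2.71 ± 0.28 in TEM4-18 (SE, limma adjusted p = 6.22e-05) and -1.67 ± 0.28 in TEM2-5 (SE, limma adjusted p = 0.00287), both larger than the spread between arrays. TEM4-18 and TEM2-5 differed by -1.04 ± 0.28 on the log2 scale, which did not pass (limma adjusted p = 0.119). This difference passed in 1 of 13 alternatives, at -1.50 without TEM4-18 replicate 2 (limma adjusted p = 0.0198), and was -0.58 and not called without TEM4-18 replicate 1. A name ending in _s_at marks probes that can match several transcripts. The other EPHA1 probe sets lay below the filter, with 241482_at at 8.93 to 301 and 215804_at at 43.5 to 191 over the 6 arrays.

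By the smallest root mean square distance of centred log2 signals over the 6 arrays, among 13621 tested genes, the genes most like EPHA1 were ARL14, RASSF6 and MGAT4A. Their distances were 0.107, 0.120 and 0.177 on the log2 scale. ARL14 had a log2 fold change of -2.82 in TEM4-18 and -1.65 in TEM2-5. In the same order, RASSF6 had -2.46 and -1.66, and MGAT4A had -2.86 and -1.59. These genes were picked by their likeness to EPHA1 on the same arrays, so similar fold changes follow from the choice. The mean signals of ARL14, RASSF6 and MGAT4A in TEM4-18 were 120, 132 and 70.1, below the filter on low signals. The genes were tested because of their levels in the other lines, and the sizes of their TEM4-18 changes rest on low signals.

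EPHA2, the receptor often found at high levels in epithelial cancers, had a signal of 20423 and 19376 in TEM4-18, 20278 and 18050 in TEM2-5, and 16765 and 15845 in PC-3. Both PC-3 arrays lay below all 4 arrays of the TEM lines, which overlapped each other. Relative to PC-3 the log2 fold change was 0.29 ± 0.08 in TEM4-18 (SE, limma adjusted p = 0.0218), a mean signal 1.22 times that of PC-3. In TEM2-5 it was 0.23 ± 0.08 (SE, limma adjusted p = 0.0753), which did not pass. The TEM4-18 call was lost in 5 of 13 alternatives, among them the fits without TEM4-18 replicate 1 (limma adjusted p = 0.124), without TEM4-18 replicate 2 (limma adjusted p = 0.0513) and without PC-3 replicate 2 (limma adjusted p = 0.113). EPHA1 and EPHA2 are receptors of the same class with different calls here, and the difference between the genes was not tested.

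EPHA4, a receptor that binds ephrins of both classes, had 5 probe sets and no call. The probe set with the highest mean, 227449_at, gave 385 and 476 in TEM4-18, 272 and 319 in TEM2-5, and 330 and 339 in PC-3. Its log2 fold change was 0.31 ± 0.27 in TEM4-18 (SE, limma adjusted p = 0.458) and -0.16 ± 0.27 in TEM2-5 (SE, limma adjusted p = 0.762). On 228948_at the TEM4-18 arrays were far apart, at 309 and 29.9, so that the standard error was 0.63. The probe set 206114_at lay below the filter and was not tested, with 219 and 272 in TEM4-18, 153 and 26.9 in TEM2-5, and 33.1 and 58.1 in PC-3. The log2 fold change of 228948_at was -0.63 in TEM4-18 and -0.23 in TEM2-5, and that of 229374_at 0.37 ± 0.46 and 0.39 ± 0.46 (SE), with no call. The fifth probe set, 238671_at, was at 8.89 to 39.6 over the 6 arrays and not tested. The 5 EPHA4 probe sets therefore gave no common direction.

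EPHB3, a receptor for ephrin-B ligands known for the sorting of epithelial cells in the gut, was read by a pair of probe sets. On 204600_at the signal was 2650.1 and 1859 in TEM4-18, 2037 and 1499 in TEM2-5, and 1518 and 1416 in PC-3. On 1438_at it was 2302 and 1884 in TEM4-18, 1805 and 1326 in TEM2-5, and 1209 and 1459.9 in PC-3. TEM4-18 lay above PC-3 on both probe sets, and TEM2-5 overlapped PC-3 on both. The log2 fold changes in TEM4-18 were 0.58 ± 0.19 (SE, limma adjusted p = 0.0462) for 204600_at and 0.63 ± 0.18 (SE, limma adjusted p = 0.0253) for 1438_at. In TEM2-5 they were 0.25 and 0.21 (limma adjusted p = 0.441 and 0.481), and the difference between the TEM lines did not pass (limma adjusted p = 0.543 and 0.371). Without TEM4-18 replicate 1 the TEM4-18 change was 0.33 (limma adjusted p = 0.309) and 0.49 (limma adjusted p = 0.159), and without PC-3 replicate 1 it was 0.63 (limma adjusted p = 0.0958) and 0.50 (limma adjusted p = 0.135), on 204600_at and 1438_at in that order. The call on 204600_at was also lost without PC-3 replicate 2 (limma adjusted p = 0.155).

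EPHB4, the main receptor of ephrin-B2, passed no test. On 202894_at its signal was 4245 and 5035 in TEM4-18, 4051 and 4565 in TEM2-5, and 4510.1 and 3675 in PC-3, so that all lines overlapped. The log2 fold change was 0.18 ± 0.13 in TEM4-18 and 0.08 ± 0.13 in TEM2-5 (SE, limma adjusted p = 0.360 and 0.751). The TEM4-18 value was 0.035 without PC-3 replicate 2 and 0.33 without PC-3 replicate 1. The second probe set, 216680_s_at, read 1236 and 1002 in TEM4-18, 1306 and 1141 in TEM2-5, and 1573 and 1329 in PC-3. Both TEM lines lay below PC-3 on it. Its log2 fold changes differed in sign from those of the first, at -0.36 ± 0.17 and -0.24 ± 0.17 (SE, limma adjusted p = 0.143 and 0.394).

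EFNB2 encodes ephrin-B2, the transmembrane ligand of EphB4 and a marker of arterial endothelium. On probe set 202668_at its signal was 1058 and 925 in TEM4-18, 2096 and 2114 in TEM2-5, and 4413 and 4598 in PC-3. The lines formed 3 separate levels, with the arrays of a line close together. The log2 fold change against PC-3 was -2.13 ± 0.12 in TEM4-18 (SE, limma adjusted p = 9.50e-07) and -1.08 ± 0.12 in TEM2-5 (SE, limma adjusted p = 0.000259). TEM4-18 was also below TEM2-5, by -1.05 ± 0.12 on the log2 scale (SE, limma adjusted p = 0.00142). Of the 16 member probe sets, limma called 2 in this comparison of the TEM lines, both of EFNB2, which is 12.5% against 1.78% of all tested probe sets (0.357% higher and 1.43% lower).

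The second EFNB2 probe set, 202669_s_at, read 364 and 335 in TEM4-18, 1072 and 843 in TEM2-5, and 1104 and 1298 in PC-3. Here TEM4-18 stood apart, and TEM2-5 lay just below PC-3. The log2 fold change was -1.64 ± 0.19 in TEM4-18 (SE, limma adjusted p = 0.000146) and -0.32 ± 0.19 in TEM2-5 (SE, limma adjusted p = 0.320), and TEM4-18 lay below TEM2-5 by -1.32 ± 0.19 (SE, limma adjusted p = 0.00628). Both probe sets were thus called in TEM4-18, and in TEM2-5 202668_at alone was called. The difference between the probe sets was not tested, and the TEM2-5 value of 202669_s_at was -0.48 without TEM2-5 replicate 1 and -0.15 without TEM2-5 replicate 2. Without TEM2-5 replicate 1 the difference between the TEM lines on 202669_s_at was -1.16 (limma adjusted p = 0.0959), and without the mean-variance trend neither probe set passed (limma adjusted p = 0.0579 for 202668_at and 0.0756 for 202669_s_at).

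**Figure D3:**
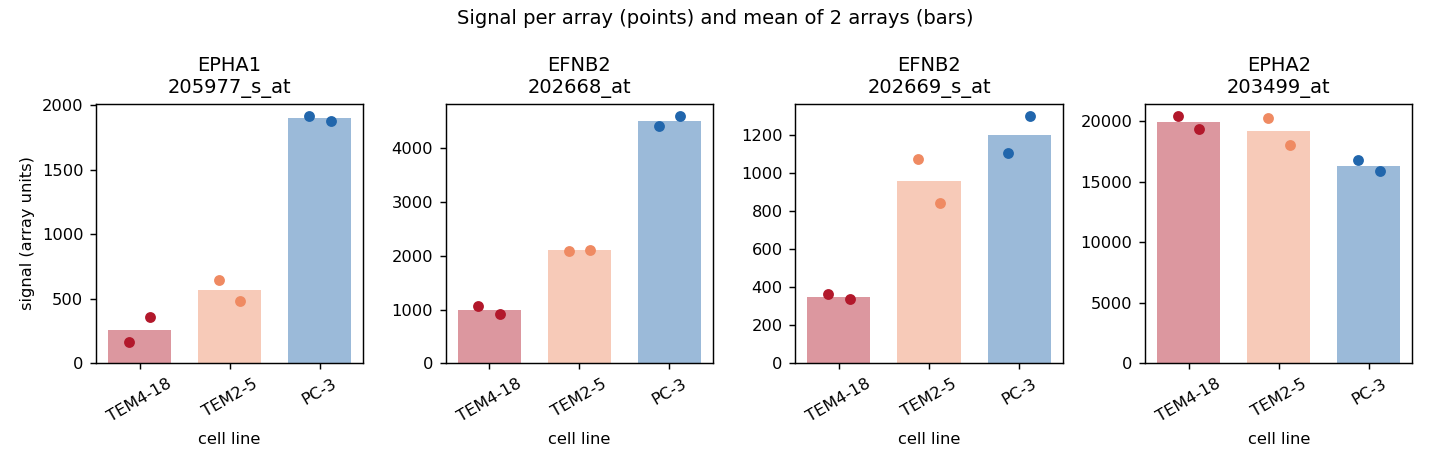
Signal in array units of EPHA1, both EFNB2 probe sets and EPHA2, with 1 point per array and bars for the mean of the 2 arrays of a line, on axes that start at 0 and differ between panels. EPHA1 and EFNB2 202668_at step up over TEM4-18, TEM2-5 and PC-3, EFNB2 202669_s_at is lowest in TEM4-18, and EPHA2 is slightly higher in TEM4-18 and TEM2-5.

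EFNA1, a lipid-anchored ephrin that binds EphA2, had a signal of 930.4 and 722 in TEM4-18, 834 and 959.9 in TEM2-5, and 1419.5 and 1258 in PC-3. Both TEM lines lay below PC-3 and overlapped each other. Its change on the log2 scale was -0.67 ± 0.18 in TEM4-18 (SE, limma adjusted p = 0.0185) and -0.55 ± 0.18 in TEM2-5 (SE, limma adjusted p = 0.0608). Without TEM4-18 replicate 2 the TEM4-18 change was -0.499 (limma adjusted p = 0.127), and without PC-3 replicate 1 it was -0.59 (limma adjusted p = 0.0991). In TEM2-5 it was called with a filter at the 60th percentile (limma adjusted p = 0.0472) and after quantile normalization.

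EFNA5, another lipid-anchored ephrin, was called in neither line on its 3 tested probe sets. On 233814_at the signal was 1130.1 and 1397 in TEM4-18, 1221 and 1374 in TEM2-5, and 1163 and 1209.8 in PC-3. The log2 fold changes of the 3 probe sets ran from -0.087 to 0.44 in TEM4-18 and from -0.198 to 0.56 in TEM2-5. The highest of each belonged to 214036_at, whose standard error was 0.24. Without PC-3 replicate 1 these were 0.13 in TEM4-18 and 0.25 in TEM2-5, and without PC-3 replicate 2 they were 0.74 and 0.87, with no call. The fourth probe set, 207301_at, was at 12.3 to 57.1 and not tested.

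EFNB1, a transmembrane ephrin encoded on the X chromosome, had a signal of 1057 and 861 in TEM4-18, 1191 and 1274 in TEM2-5, and 1419.9 and 1106 in PC-3. TEM4-18 lay below PC-3, and TEM2-5 overlapped it. Log2 fold changes were -0.38 ± 0.17 in TEM4-18 and -0.025 ± 0.17 in TEM2-5, and neither passed (SE, limma adjusted p = 0.149 and 0.949). Without PC-3 replicate 1 the TEM4-18 value was -0.20, and without PC-3 replicate 2 it was -0.55. EFNB1 and EFNB2, ligands of the same class, thus had different calls in these lines, and the difference between the genes was not tested.

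The family has 12 further human genes on a list written for this comparison, and each was read on its brightest probe set. Of these, 9 were tested, and EPHA3, EPHB1 and EFNA2 lay below the filter. In TEM4-18 against PC-3, 2 rose and 3 fell, against 29.3% of all genes called. In TEM2-5, 2 rose and 1 fell, against 19.0% of all genes called. The median log2 fold change of the 9 was -0.41 in TEM4-18 and -0.095 in TEM2-5, against -0.038 and -0.024 over all genes.

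EPHA7, a receptor known from the developing nervous system, had a signal of 600.2 and 670.0 in TEM4-18, 541 and 502 in TEM2-5, and 140.5 and 87.5 in PC-3. All TEM arrays lay above both PC-3 arrays, with log2 fold changes of 2.07 ± 0.28 and 1.81 ± 0.28 (SE, limma adjusted p = 0.000387 in TEM4-18 and 0.00181 in TEM2-5). The PC-3 mean of EPHA7, 114, lies below the filter of 174, so the probe set was tested only because of its level in the TEM lines, and the size of its fold change rests on a low PC-3 signal. EPHA5, also known from neurons, had 456 and 644 in TEM4-18, 547 and 627 in TEM2-5, and 197 and 229 in PC-3. Its log2 fold changes were 1.17 ± 0.26 and 1.27 ± 0.26 (SE, limma adjusted p = 0.00780 in TEM4-18 and 0.00822 in TEM2-5). The EPHA5 call was lost without TEM4-18 replicate 2 in TEM4-18 (limma adjusted p = 0.0819) and without TEM2-5 replicate 2 in TEM2-5 (limma adjusted p = 0.0771). With its probe sets above the filter averaged, EPHA5 missed the threshold in TEM2-5 (limma adjusted p = 0.0510).

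EPHA10, a receptor that lacks kinase activity, had 154 and 181 in TEM4-18, 178 and 192 in TEM2-5, and 502 and 445 in PC-3. Its log2 fold changes were -1.26 ± 0.33 and -1.15 ± 0.33 (SE, limma adjusted p = 0.0172 in TEM4-18 and 0.0391 in TEM2-5). Its mean in TEM4-18, 167, lies below the filter, and it was tested because of its level in PC-3. The averages named next use only the EPHA10 probe sets above the filter. Leaving out any one of the 4 arrays of TEM2-5 and PC-3 ended the TEM2-5 call (limma adjusted p = 0.120 to 0.161), as did averaging the probe sets of the gene (limma adjusted p = 0.206). The TEM4-18 call ended without TEM4-18 replicate 1 (limma adjusted p = 0.0697), without PC-3 replicate 1 (limma adjusted p = 0.0945), without PC-3 replicate 2 (limma adjusted p = 0.0624) and with its probe sets averaged (limma adjusted p = 0.228).

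The ligands EFNA3 and EFNB3 fell in TEM4-18, at -0.69 ± 0.197 and -0.62 ± 0.16 on the log2 scale (SE, limma adjusted p = 0.0252 and 0.0180), and did not pass in TEM2-5 (-0.48 and -0.51, limma adjusted p = 0.135 and 0.0604). Both lost the TEM4-18 call without TEM4-18 replicate 2 (limma adjusted p = 0.141 and 0.116) and without PC-3 replicate 1 (limma adjusted p = 0.148 and 0.0750), and EFNB3 also without PC-3 replicate 2 (limma adjusted p = 0.0584). Averaging its probe sets moved EFNB3 to -0.26 (limma adjusted p = 0.289).

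**Figure D4:**
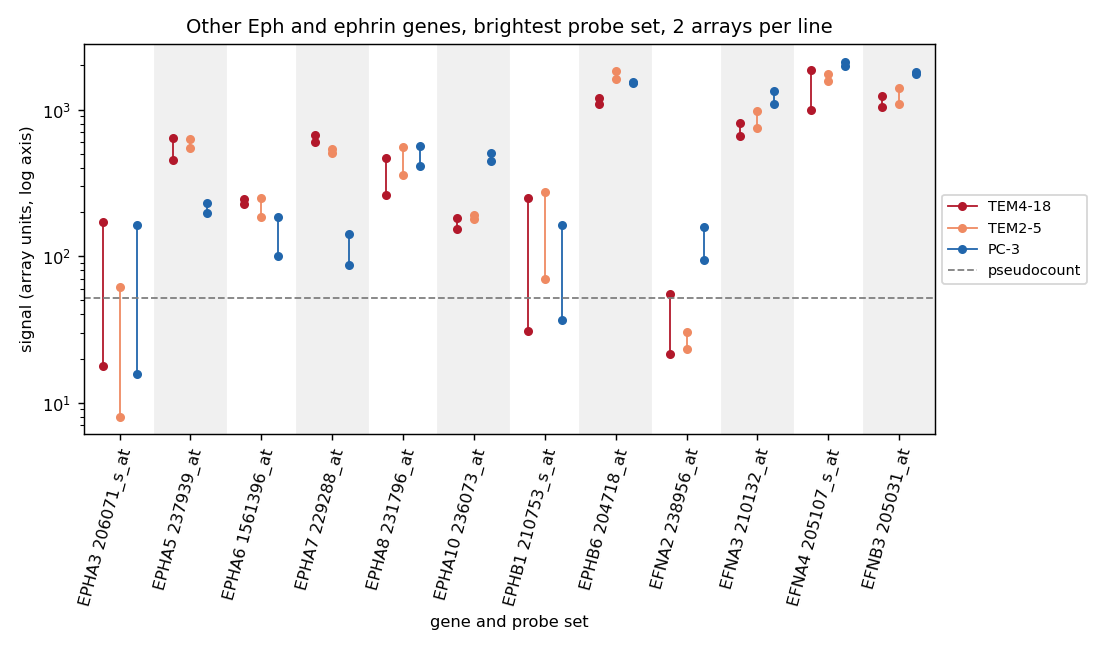
Signal in array units on a log axis of the 12 other Eph and ephrin genes on their brightest probe set, with 1 point per array, the 2 arrays of a line joined, and the pseudocount dashed. EPHA5 and EPHA7 lie higher in TEM4-18 and TEM2-5 than in PC-3, and EPHA10 lies lower.

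Beyond the receptors and ligands, 51 genes that pass on or end Eph and ephrin signals were listed, of which 47 had a single-symbol probe set and 46 were tested. In TEM4-18, 9 rose and 4 fell, which is 28.3% against 29.3% of all genes. In TEM2-5, 5 rose and 3 fell, which is 17.4% against 19.0% of all genes. Both shares were near the background, and the median log2 fold change was 0.038 in each comparison.

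Among the genes called the same way in both lines, ARHGEF16 had the largest change of the list by the rule for named genes. It encodes an exchange factor for the GTPase RhoG that binds EphA2. Its signal was 244 and 163 in TEM4-18, 688 and 631 in TEM2-5, and 2144 and 2569.5 in PC-3, 3 separate levels in the same order as EPHA1 and EFNB2 202668_at. The log2 fold change was -3.25 ± 0.21 in TEM4-18 and -1.75 ± 0.21 in TEM2-5 (SE, limma adjusted p = 2.35e-06 and 0.000383).

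AFDN, the junction scaffold afadin with a PDZ domain that binds Eph receptors, fell by 0.77 on the log2 scale in TEM4-18 and by 0.69 in TEM2-5 (limma adjusted p = 0.00215 and 0.00719). Averaged over its probe sets above the filter, AFDN passed in neither line (limma adjusted p = 0.195 and 0.341). The TEM2-5 call was lost without TEM2-5 replicate 1 (limma adjusted p = 0.0606) and without PC-3 replicate 2 (limma adjusted p = 0.0601). SDCBP, or syntenin, whose PDZ domains bind the tails of ephrin-B ligands, fell by 0.78 in TEM4-18 and by 0.34 in TEM2-5 (limma adjusted p = 6.00e-05 and 0.0160). Its TEM2-5 call was lost without TEM2-5 replicate 1 (limma adjusted p = 0.0883), TEM2-5 replicate 2 (limma adjusted p = 0.0719) and PC-3 replicate 1 (limma adjusted p = 0.109).

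The Src family kinases SRC and YES1, which act downstream of both receptors and ephrins, rose. FYN, the other kinase of that family on the list, was at -0.081 in TEM4-18 and -0.085 in TEM2-5 and did not pass (limma adjusted p = 0.661 and 0.679), and is named here after its values were seen. SRC had 7609 and 6639 in TEM4-18, 5813 and 5249 in TEM2-5, and 2746 and 2796 in PC-3, with log2 fold changes of 1.34 ± 0.11 and 0.98 ± 0.11 (SE, limma adjusted p = 8.08e-06 in TEM4-18 and 0.000180 in TEM2-5). YES1 rose by 0.59 and 0.53 (limma adjusted p = 0.000974 in TEM4-18 and 0.00339 in TEM2-5), and the adaptor SHC1 by 0.93 and 0.48 (limma adjusted p = 9.12e-06 in TEM4-18 and 0.00166 in TEM2-5). SIPA1L1, a regulator of Rap GTPases, rose by 0.41 and 0.61 on its brightest probe set, 202255_s_at (limma adjusted p = 0.0449 in TEM4-18 and 0.0116 in TEM2-5). In the same order, 202254_at was at 1.34 and 1.36, called in both lines, and 237032_x_at at -0.25 and 0.22, called in neither. The left-out fits given next are of 202255_s_at. Without PC-3 replicate 1 SIPA1L1 was at 0.26 in TEM4-18 (limma adjusted p = 0.260) and 0.45 in TEM2-5 (limma adjusted p = 0.0735), and without TEM2-5 replicate 1 the TEM2-5 change was 0.48 (limma adjusted p = 0.104). The TEM4-18 call of SIPA1L1 was also lost without TEM4-18 replicate 1 (limma adjusted p = 0.105) and without TEM4-18 replicate 2 (limma adjusted p = 0.162).

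Epithelial markers, and some endothelial and fibroblast markers, differed between the lines alongside these genes. The summed signal of the epithelial markers KRT8, KRT18, EPCAM and CDH1 was 36805 to 38951 in TEM4-18, 51228 to 54093 in TEM2-5, and 138405 to 142552 in PC-3. All 4 fell in both TEM lines. The mean of CDH1 in TEM4-18, 41.8, lies below the filter, and it was tested because of its level in the other lines. The 10 endothelial markers summed to 2851 to 4234 in TEM4-18, 3065 to 3485 in TEM2-5, and 1816 to 2345 in PC-3. KDR and ESAM were called higher in TEM4-18 and KDR in TEM2-5. PECAM1, the other tested marker, was at -0.40 in TEM4-18 and 0.077 in TEM2-5 and was not called (limma adjusted p = 0.318 and 0.886). The remaining 7 of the 10, among them CDH5, TEK, TIE1 and VWF, lay below the filter in the mean over the 6 arrays. CDH5 signals were 53.3 and 23.9 in TEM4-18, 201 and 93.7 in TEM2-5, and 24.6 and 145 in PC-3. The 6 fibroblast markers summed to 19431 to 22898 in TEM4-18, 19130.2 to 23239 in TEM2-5, and 8107 to 9926 in PC-3. Most of each sum was COL1A1, with means of 20625, 19986 and 7584 in that order, and COL1A1 was called higher in both TEM lines. LUM was called lower in TEM4-18, where its mean of 22.6 lies below the filter. COL1A2, COL3A1 and DCN were called in neither line, at -0.70, -1.17 and -0.27 in TEM4-18 and -0.24, 0.64 and 0.14 in TEM2-5 on the log2 scale. The 3 measured leukocyte markers were below the filter. KLK3, a prostate gene known to be low in PC-3, read 1301 and 770.0 on the PC-3 arrays, on a probe set that can match related genes. The part of these markers in the results above was not tested. In bulk RNA, fewer cells with a transcript and less of it per cell cannot be told apart.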

How the data were processed

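Total RNA of 3 cell lines was measured on 6 short-oligonucleotide arrays, 2 per line, and grouped by sample title. The authors deposited linear signal intensities per probe set, and MAS5 is the tool named in the submitters' processing notes. Its version and the genome build are not given in the sources used here. The 2% trimmed mean was 1500.17 to 1500.18 on every array, so the intensities were not normalized again. After removal of 62 controls, probe sets with a mean above the 40th percentile (174) were kept, and log2(value + 51.8), with the 20th percentile as pseudocount, was fitted with limma 3.58.1 in R 4.3.3 (3 group means, 3 residual degrees of freedom, mean-variance trend). All tests were two-sided, and p-values were adjusted by Benjamini-Hochberg across the 32768 probe sets of a comparison, with a threshold of 0.05. Fold changes carry the standard error of the linear model. Platform gene symbols were matched by gene ID to RefSeq (GRCh38.p14), with 0 symbols changed and 54 probe sets without a match. Other genes were represented by their brightest probe set.

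Named genes were every member, further family genes called in a TEM line, up to 4 rising and 4 falling signalling genes with the largest smaller change, and the 3 genes closest to the member with the largest change. The members and lists were chosen with earlier results of these data known. Groups of 2 arrays allow no permutation p below 0.333. The same code was tested on simulated data. Alternatives covered the pseudocount, filter, quantile normalization, trend, replicate block, left-out arrays and averaged probe sets. The averages were over the probe sets of a gene that passed the filter.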

Additional observations from a re-analysis of the deposited data

Results flagged for a closer look

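EFNB2 was the member whose change against PC-3 differed between the lines by a test of the difference itself. TEM4-18 minus TEM2-5 was -1.05 on the log2 scale for probe set 202668_at (limma adjusted p = 0.00142) and -1.32 for 202669_s_at (limma adjusted p = 0.00628). With 2 arrays per line, outlying arrays could not be tested for.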

How the results depend on the processing

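EPHA1 205977_s_at and EFNB2 202668_at were called lower in both TEM lines under all 13 alternatives, as was EFNB2 202669_s_at in TEM4-18. EPHA1 ranged from -3.17 to -2.20 in TEM4-18 and from -1.86 to -1.45 in TEM2-5, and EFNB2 202668_at from -2.22 to -1.98 and from -1.11 to -1.03. The calls of EPHA2, EPHB3 and EFNA1 in TEM4-18 each ended in some alternatives, with EPHA2 called in 8 of 13, EPHB3 in 7 and 9 of 13, and EFNA1 in 10 of 13. With no mean-variance trend, called probe sets numbered 5360 in TEM4-18, 2320 in TEM2-5 and 125 between the TEM lines, with 3 member probe sets in TEM4-18 and 0 between the TEM lines (unadjusted p under 0.05 in the limma fit with the trend, 1 of 16 higher and 3 lower, against 5.15% and 7.35% of all probe sets). Without the trend, 3 of 9 other family genes were called in TEM4-18. Of 46 signalling genes, 6 were called in TEM4-18, 2 in TEM2-5 and 0 between the TEM lines. Without the trend, EPHA2, EPHB3, EFNA1, EFNA3, EFNB3, YES1 and SIPA1L1 lost the TEM4-18 call, EFNB2 the call between the TEM lines, and YES1, SHC1, SIPA1L1, AFDN and SDCBP the TEM2-5 call. With no filter, 4 of 21 member probe sets were called in TEM4-18, against 7064 of 54613 of all, and 300.0 of all between the TEM lines. With the filter at the 60th percentile, 4 other family genes were tested, of which 3 were called in TEM4-18 and 1 in TEM2-5. Of all 21845 probe sets tested there, 8011 were called in TEM4-18 and 5370 in TEM2-5. With all tested probe sets of a gene averaged, 1 of 9 other family genes was called in TEM2-5 and 1 of 9 between the TEM lines. The share of all genes called in that fit is not given. The smaller counts under the filter at the 60th percentile come with fewer genes tested. For the other changes the cause was not tested.

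Leaving out 1 array at a time, counts ran from 2825 to 5135 probe sets in TEM2-5 and from 218 to 550.0 between the TEM lines. Member probe sets ran from 4 to 7 in TEM4-18 and from 1 to 3 between the TEM lines, other family genes from 2 to 5 in TEM4-18 and from 1 to 3 in TEM2-5, and signalling genes from 4 to 10 in TEM2-5 and from 1 to 3 between the TEM lines. Each fit tested 32768 probe sets, among them 16 member probe sets, and 9 other family genes and 46 signalling genes were counted. In TEM4-18 the number of all probe sets called was below that of the main fit whichever array was left out. Whether the counts of members and listed genes moved with the counts over all probe sets was not tested. The log2 changes that turned were of probe sets not called. In TEM4-18 they ran from -0.18 to 0.93 for EPHA4 229374_at, from -1.70 to 0.44 for EPHA4 228948_at and from -0.067 to 0.23 for EFNA5 233814_at. In TEM2-5 they ran from -0.16 to 0.95 for EPHA4 229374_at, from -0.0022 to 0.43 for EPHB3 1438_at, from -0.068 to 0.22 for EPHB4 202894_at and from -0.198 to 0.15 for EFNB1. Between the TEM lines they ran from -0.028 to 0.14 for EPHA2, from -0.51 to 0.47 for EPHA4 229374_at (0.049 after quantile normalization) and from -1.47 to 0.67 for EPHA4 228948_at. The rest were EPHB4 202894_at (-0.019 to 0.23), EPHB4 216680_s_at (-0.27 to 0.017), EFNA1 (-0.29 to 0.053), EFNA5 233814_at (-0.19 to 0.10) and EFNA5 227955_s_at (-0.075 to 0.299).

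Arrays of different lines share replicate numbers, which the labels do not tie to a shared culture or day, so the numbers were not taken as pairs. Their deviations from the line means correlated at 0.062 to 0.098 over probe sets, a measure that cannot see a shift common to a whole array. The median signal was higher on replicate 1 than on replicate 2 in TEM4-18 (296 and 267), TEM2-5 (310 and 281) and PC-3 (317 and 282). A batch shared by replicate number was not tested. With the replicate number as a block, 13 of 46 signalling genes were called in TEM2-5, and EPHA2 passed there (limma adjusted p = 0.0280). Called probe sets then numbered 9445 in TEM4-18, 6429 in TEM2-5 and 874 between the TEM lines, against 8396, 5325 and 584 in the main fit.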
